A study of Danio rerio with 6 samples.

Results

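The cells described here carry transcripts of Müller glia, and they are called glial-marker cells below. They were chosen from single-cell RNA-seq of zebrafish eyes as droplet barcodes with at least 1000 genes and at most 10% mitochondrial UMIs that held at least 1 UMI in 3 or more of 8 genes: her12, notch3, efhd1, hsd11b2, rlbp1a, slc1a2b, fabp7a and cldn5b. The rule found 1570 glial-marker cells among 5606 barcodes that passed the filter, and the remaining barcodes are called other cells. Eyes were dissected at 48 hpf from embryos of a line in which the human PAX6 enhancer NRE drives eGFP and the human PAX6 enhancer HS5 drives mCherry from 1 genomic landing site. FACS gave 3 libraries enriched for mCherry (HS5-active cells) and 3 enriched for eGFP (NRE-active cells), and every embryo of both groups carried both reporters. Embryos were pooled for each sample, were treated with PTU to block pigment, and the reporter contains a minimal gata2 promoter. The sort of mCherry-enriched replicate 1 took cells positive for both reporters, while mCherry-enriched replicates 2 and 3 took all mCherry-positive cells, with the replicate number read as the study's round of sorting.

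Müller glia are the radial glia of the retina. They are the last cell class to leave the progenitor pool, span the retinal layers, take up glutamate and recycle visual pigment chromophore. Notch signalling, in which Delta ligands on a neighbour release the receptor's intracellular domain to switch on her genes, holds retinal progenitors undifferentiated and favours glial fate. Zebrafish Müller glia are also known for returning to the cell cycle after injury and making new neurons.

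Of the marker genes, her12 is a hairy-related repressor, notch3 a Notch receptor and fabp7a a brain lipid-binding protein of radial glia and progenitors. The product of rlbp1a is a retinaldehyde-binding protein of Müller glia and pigment epithelium, that of slc1a2b is a glial glutamate transporter, that of hsd11b2 inactivates cortisol, that of cldn5b is a tight-junction claudin, and that of efhd1 is a calcium-binding protein of mitochondria. The files list them as ENSDARG00000032963 (her12), ENSDARG00000052139 (notch3), ENSDARG00000043446 (efhd1), ENSDARG00000001975 (hsd11b2), ENSDARG00000012504 (rlbp1a), ENSDARG00000102453 (slc1a2b), ENSDARG00000007697 (fabp7a) and ENSDARG00000014059 (cldn5b). The study used all 8 as Müller glia markers on these same libraries, so their levels against other cells describe the choice and were not tested.

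The libraries held 14307132 to 86803928 UMIs and 85 to 2303 passing cells. The 2 libraries numbered replicate 1 stood apart. Their glial-marker cells had median depths of 21946 (mCherry-enriched) and 18790.5 UMIs (eGFP-enriched) against 7013 and 6139 in their other cells, and 34.3% and 40.7% of them held over 3 times the median UMIs of their library. In the other 4 libraries the median of glial-marker cells was 5903 to 9227 UMIs, and 7.26% to 11.4% exceeded that limit. Across all pairs of libraries 1 barcode of a glial-marker cell was shared. Values without the replicate 1 libraries are given beside the counts that they move by over 1.5 times or end.

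Levels are given as CPM, the UMIs of a gene per 1000000 UMIs summed over the cells of a set in a library. In glial-marker cells her12 stood at 255, 663 and 312 CPM in mCherry-enriched replicates 1 to 3 and at 150, 291 and 309 CPM in eGFP-enriched replicates 1 to 3, against 3.25 to 14.4 CPM in other cells. The gene notch3 lay at 232 to 543 CPM against 14.5 to 78.2 CPM. The groups of cells did not overlap for either gene. For fabp7a, glial-marker cells held 6579, 10959 and 9320 CPM in the mCherry-enriched and 6135, 8956 and 9765 CPM in the eGFP-enriched libraries, with other cells at 2905 to 3466 CPM. Since fabp7a had a UMI in 99.5% to 100% of glial-marker cells and 90.9% to 99.9% of other cells, the rule amounted to 2 or more of the remaining 7 genes.

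The less abundant marker genes followed the same order with more spread. In glial-marker cells rlbp1a lay at 41.8 to 225 CPM and in other cells at 1.62 to 11.7 CPM, and slc1a2b lay at 44 to 157 CPM against 6.18 to 15.3 CPM. The gene efhd1 lay at 30.5 to 161 CPM against 0 to 16.5 CPM. Among the 12 cells of eGFP-enriched replicate 2 the order was reversed for hsd11b2, at 26.4 CPM against 78.2 CPM in other cells, and for cldn5b, at 96.9 CPM against 101 CPM. RNA outside intact cells carried the same genes. In barcodes with at most 100 UMIs, her12 stood at 72.8 to 157 CPM and fabp7a at 5668 to 7815 CPM, above the levels of other cells in every library, and the part of this RNA in the choice of cells was not tested.

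**Figure D1:**
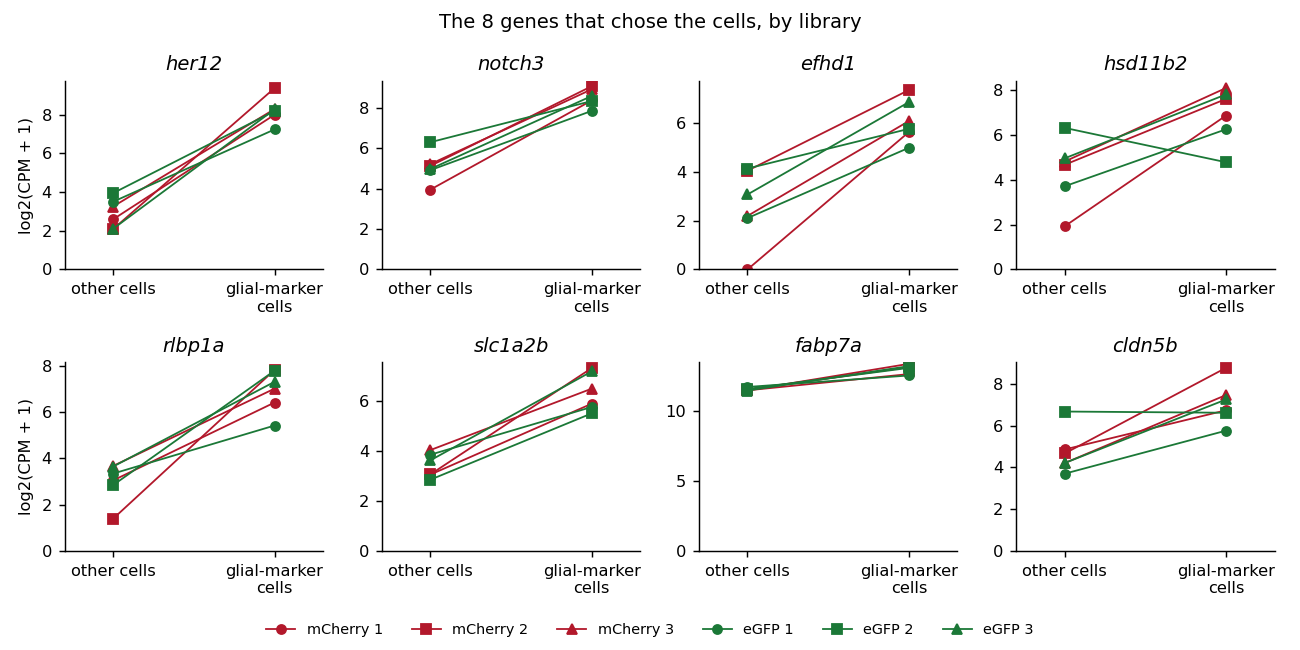
The 8 marker genes that chose the cells, each panel giving log2(CPM + 1) in other cells (left) and glial-marker cells (right), with 1 line per library (red mCherry-enriched, green eGFP-enriched, symbols for replicates). Every line of her12, notch3 and fabp7a climbs, while the line of eGFP-enriched replicate 2 falls for hsd11b2 (78.2 to 26.4 CPM).

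At the boundary of the rule, more cells with 3 marker genes than with 2 held a UMI of notch3 and of her12 in every library, as the choice requires of some genes, and the other genes varied by library. In mCherry-enriched replicate 2, rlbp1a was found in 4% of cells with 2 marker genes and 31.2% of those with 3, and notch3 in 22% and 31.2%. In eGFP-enriched replicate 3, notch3 stood at 75.3 CPM in the 576 cells with 2 marker genes and 211 CPM in the 233 cells with 3, her12 at 8.94 and 83.9 CPM, and rlbp1a at 27.9 and 40.3 CPM. In mCherry-enriched replicate 3, notch3 stood at 91.3 and 292 CPM and her12 at 24.1 and 99.3 CPM on the 2 sides.

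The number of marker genes detected separated several kinds of cell. Of the 1570 glial-marker cells, 686 held 3 marker genes, 352 held 4, 194 held 5, 107 held 6 and 231 held 7 or 8. In the replicate 3 libraries the cells with 7 or 8 marker genes, 8 of mCherry-enriched and 37 of eGFP-enriched origin, had median depths of 4163 and 6506 UMIs. They held 49164 and 47389 CPM of fabp7a, so close to 1 UMI in 20 came from this gene, and rlbp1a reached 856 and 1642 CPM. The 5 such cells of mCherry-enriched replicate 2 had a median of 4978 UMIs and were alike in these genes, with 48624 CPM of fabp7a and 1314 CPM of rlbp1a.

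Genes that the rule did not use gave these cells a glial profile as well. The level of id1, a target of BMP signalling, was 3519 and 4850 CPM in the replicate 3 cells with 7 or 8 marker genes and 3492 CPM in those of mCherry-enriched replicate 2, against 171 to 358 CPM in the other cells of these 3 libraries. The retinoic acid-binding gene crabp1a stood at 2401, 2007 and 1652 CPM in the same order, lfng, a glycosyltransferase that modifies Notch receptors, at 1117, 1039 and 1014 CPM, and tjp2b, a tight-junction scaffold, at 951, 958 and 1164 CPM. The Hippo pathway effector yap1 stood at 785, 462 and 375 CPM. The neuronal RNA-binding gene elavl3 was nearly gone, at 71.3, 6.24 and 0 CPM, and the replication clamp pcna was at 0, 206 and 37.5 CPM. The 12 ganglion cell markers summed to 475, 449 and 300 CPM in the same order, against 2997, 2393 and 2904 CPM in other cells. The 11 photoreceptor markers were not lower, at 1854, 1888 and 1352 CPM against 1386, 1306 and 1340 CPM. These glial genes were thus high and ganglion cell genes low in these cells. However, id1, crabp1a, lfng and tjp2b were among the study's own Müller glia markers from these libraries and are not independent evidence of the label. Of the later Müller glia genes, glula, a glutamine synthetase gene, stood at 0, 156 and 75.1 CPM. The 43 Müller glia function genes, glula among them, summed to 8606, 8414 and 8824 CPM in the same order. Other cells held 2367, 1990 and 2308 CPM of this list. In the cells with 7 or 8 marker genes 27, 16 and 26 of these genes were at 0.

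In the replicate 1 libraries the cells with most marker genes were instead the deepest barcodes. The 44 cells with 7 or 8 marker genes in mCherry-enriched replicate 1 had a median of 55618.5 UMIs and the 136 cells in eGFP-enriched replicate 1 had 90057.5 UMIs. Their fabp7a stood at 9272 and 6957 CPM, id1 at 871 and 553 CPM and crabp1a at 431 and 251 CPM. Neuronal genes were present in them, with elavl3 at 726 and 916 CPM, the ganglion cell gene isl2b at 59.7 and 123 CPM and the bipolar gene vsx1 at 1943 and 1273 CPM. In the replicate 3 cells with 7 or 8 marker genes, isl2b stood at 0 and 9.36 CPM and vsx1 at 737 and 474 CPM. The replicate 1 cells with most marker genes thus did not match those of replicate 3 in these genes. As a whole list, the 12 ganglion cell markers summed to 1549 and 2205 CPM in these replicate 1 cells and to 475 and 449 CPM in those of replicate 3. Other cells of the replicate 1 libraries held 3684 and 2628 CPM of this list. The 43 Müller glia function genes summed to 3173 and 2210 CPM in the replicate 1 cells with most marker genes, against 2448 and 2153 CPM in those other cells. The part of barcodes that hold more than 1 cell in these levels was not tested.

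**Figure D2:**
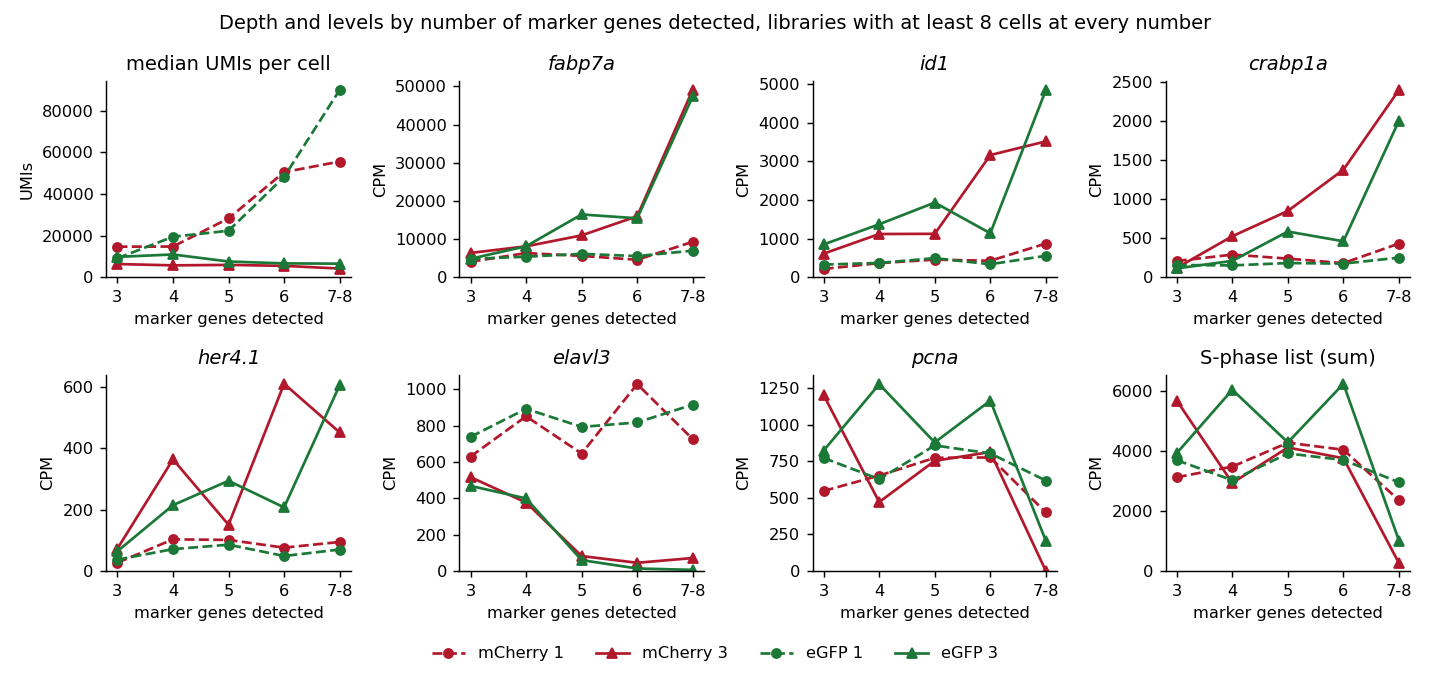
Median UMIs per cell and levels in CPM of fabp7a, id1, crabp1a, her4.1, elavl3, pcna and the summed S-phase list against the number of marker genes detected (3 to 7 or 8), for replicates 1 (dashed) and 3 (solid) of both sorts (red mCherry-enriched, green eGFP-enriched). Depth climbs with the number of marker genes in the replicate 1 libraries, to 55618.5 and 90057.5 UMIs, while in the replicate 3 libraries fabp7a, id1 and crabp1a climb and elavl3 falls to 71.3 and 6.24 CPM.

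The glial-marker cells were a mixture of kinds. Of the 25 S-phase genes, the summed level in replicate 3 cells with 3 marker genes was 5673 (mCherry-enriched) and 3922 CPM (eGFP-enriched), against 262 and 1011 CPM in those with 7 or 8. A second kind held pigment genes. Cells with at least 1 UMI in 3 or more of 11 pigment markers made up 9, 3 and 7 glial-marker cells of mCherry-enriched replicates 1 to 3 and 41, 0 and 15 of the eGFP-enriched ones, and 1 and 12 of those in the replicate 1 libraries held 7 or 8 marker genes. The 7 cells of mCherry-enriched replicate 3 held 10475 CPM of dct, a melanin-synthesis gene, with 584 CPM of rlbp1a and 1184 CPM of hsd11b2 but 48.6 CPM of notch3 and no UMI of her12. These cells thus met the rule largely without the Notch genes. Cells with 3 or more of 18 brain markers numbered 22, 0 and 1 in the mCherry-enriched and 108, 0 and 15 in the eGFP-enriched libraries, with median depths of 89384 and 105040 UMIs in the replicate 1 libraries, where 12 and 52 of them held 7 or 8 marker genes. The 15 cells of eGFP-enriched replicate 3 had a median of 18307 UMIs and held 269 CPM of foxg1a, a forebrain and nasal retina gene, 502 CPM of slc1a2b and 62.7 CPM of atp1b4, with 22.1 CPM of rlbp1a.

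Glial-marker cells made up 53.5% (95% Wilson interval 48.4 to 58.4), 13.3% (9.42 to 18.5) and 20.8% (17.7 to 24.2) of passing cells in mCherry-enriched replicates 1 to 3. In eGFP-enriched replicates 1 to 3 the shares were 39.1% (37 to 41.2), 14.1% (8.26 to 23.1) and 17.9% (16.4 to 19.5). The 2 replicate 1 libraries were highest and the sorts overlapped. The intervals cover counting error only. The mean was 29.2% ± 21.4 (SD, n = 3) against 23.7% ± 13.5 (SD, n = 3), a difference of 5.48 percentage points with a p of 0.7 in a two-sided exact permutation test whose smallest p is 0.1. Without mCherry-enriched replicate 1 the difference turned to -6.66 points, and without both replicate 1 libraries it was 1.03 points.

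With every cell thinned to 1500 UMIs before the rule was applied, the shares fell to 17%, 4.59% and 8.04% in the mCherry-enriched and to 10.1%, 3.53% and 5.82% in the eGFP-enriched libraries. The mCherry-enriched library was then the higher within each replicate number, but the difference of 3.4 points gave a p of 0.6 in the exact permutation test and a p of 0.25, the smallest possible, in an exact sign-flip test within sort rounds. No passing cell was below 1500 UMIs, so none was left out.

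**Figure D3:**
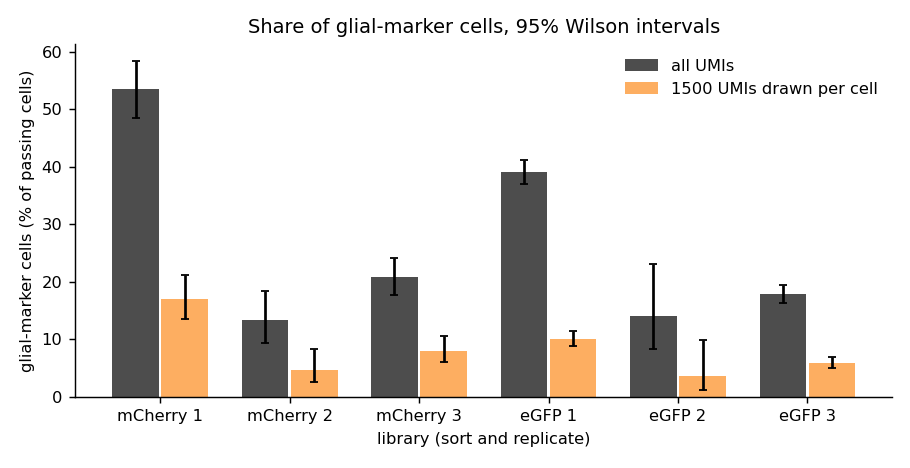
Share of passing cells that are glial-marker cells in each library, from all UMIs (grey) and after drawing 1500 UMIs per cell (orange), with 95% Wilson intervals as error bars. The replicate 1 libraries stand highest in each sort, at 53.5% and 39.1% from all UMIs and at 17% and 10.1% after thinning.

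Glial-marker cells were then compared with other cells of the same library across all genes, using UMI sums per library, the quasi-likelihood test of edgeR and p-values adjusted by Benjamini-Hochberg over all genes tested. Of 11619 genes outside the 8 marker genes, 454 (3.91%) were higher and 734 (6.32%) were lower in glial-marker cells. Without both replicate 1 libraries 203 of 8627 genes (2.35%) were higher and 449 (5.2%) lower, and 550 genes were called in the same direction in both fits. The 1188 calls became 526 without eGFP-enriched replicate 3, 554 without mCherry-enriched replicate 1 and 653 without mCherry-enriched replicate 3. Cells were chosen on transcripts that glia and progenitors share, so genes that accompany these transcripts follow from the choice. Of the genes named below, her4.1, her4.2, her15.2, lfng, id1, tjp2b, crabp1a, olig2 and si:ch73-21g5.7 were also in the study's list of Müller glia markers from these libraries and are not independent evidence of the label.

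Transcriptional effectors of Notch were higher in glial-marker cells. Of the 19 her, hes and hey genes in the list, 16 were tested, 12 rose and none fell, with a median log2 difference of 2.12 against -0.04 for all genes. The repressor gene her4.1, a direct Notch target, stood at 82.2, 197 and 166 CPM in glial-marker cells of mCherry-enriched replicates 1 to 3 and 64.8, 88.1 and 162 CPM in those of eGFP-enriched replicates 1 to 3. In other cells her4.1 lay at 5.59 to 18.6 CPM, so the 2 sets did not overlap in any library. Its log2 difference was 3.17 (SE 0.18, adjusted p = 3.8e-06, edgeR, higher in 6 of 6 libraries). Among the relatives, her4.2_1 rose by 3.41, her8a by 3.14, her15.1 by 2.2 and her15.2 by 1.9 on the log2 scale. The her4 and her15 genes are close paralogs whose reads the counting could divide or drop, and their sequences were not compared here, so their individual levels are uncertain. Summed over 5 her4 genes the level was 354, 422 and 579 CPM in the mCherry-enriched and 136, 317 and 541 CPM in the eGFP-enriched libraries, against 23.6 to 72.9 CPM in other cells. Without both replicate 1 libraries 10 of 15 her, hes and hey genes rose, and her6 was no longer called (log2 difference 1.02, adjusted p = 0.1).

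Of the receptors outside the rule, notch1b rose by 2.95 on the log2 scale (SE 0.18, adjusted p = 3.8e-06, edgeR). It stood at 80.5, 88.4 and 128 CPM in the mCherry-enriched and 61.6, 79.3 and 93.6 CPM in the eGFP-enriched libraries, with other cells at 6.18 to 19.6 CPM. All libraries were alike in this order. The receptor gene notch1a rose less, by 0.98 (SE 0.13), and notch2 had a log2 difference of -0.43 and was not called. Of 7 Delta and Jagged ligand genes tested 2 rose, dld by 2.14 and dla by 1.5 on the log2 scale. For dla, the level in glial-marker cells was 137 to 401 CPM against 42.2 to 127 CPM in other cells.

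Modifiers and feedback genes of the pathway were divided. Of 17 tested, 4 rose, namely nrarpa (1.88) and nrarpb (1.72), Notch-induced inhibitors of the Notch complex, lfng (1.81) and dtx4a (1.7), a Deltex ubiquitin ligase, all on the log2 scale. The fringe gene mfng fell by 3.13. Without both replicate 1 libraries 4 of 15 tested genes of this list rose and none was called lower. The core transcription factor genes rbpja (log2 difference 0.12) and rbpjb (-0.14) were not called.

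**Figure D4:**
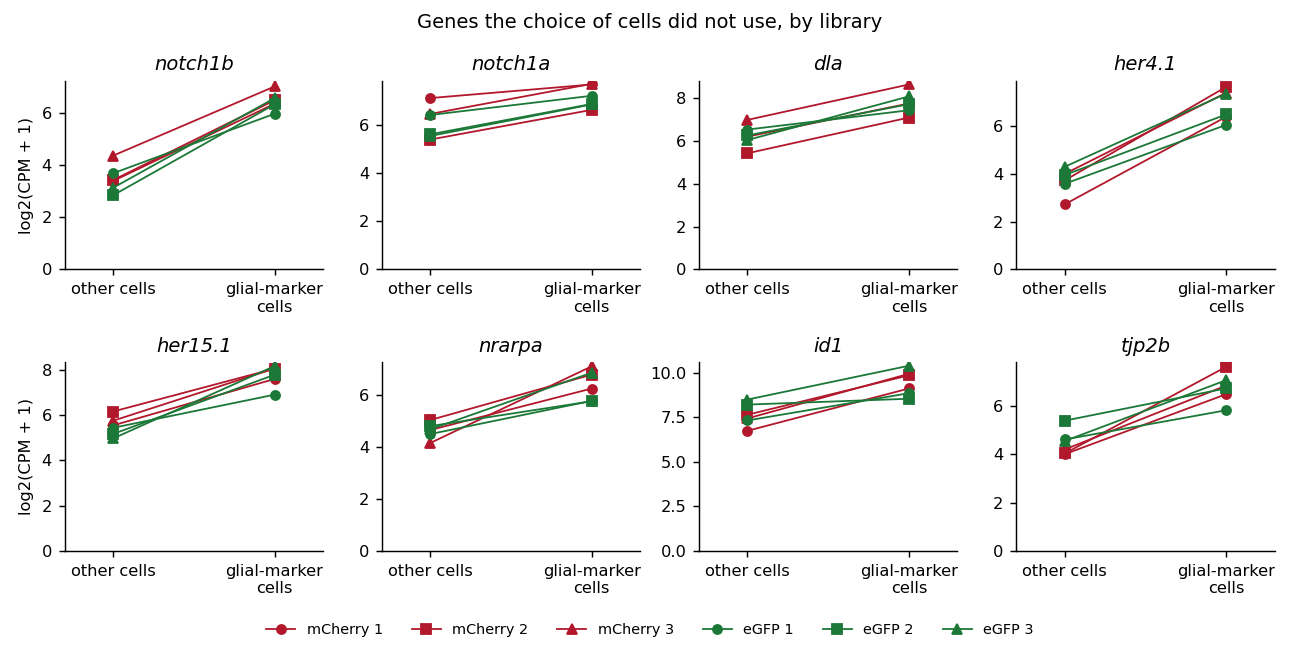
Levels of the Notch pathway genes notch1b, notch1a, dla, her4.1, her15.1 and nrarpa and of id1 and tjp2b as log2(CPM + 1) in other cells (left) and glial-marker cells (right), with 1 line per library (red mCherry-enriched, green eGFP-enriched). Every line climbs, and her4.1 goes from 5.59 to 18.6 CPM in other cells to 64.8 to 197 CPM in glial-marker cells.

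Müller glia function genes moved in both directions. Of 34 tested, 11 rose and 5 fell, with a median log2 difference of 0.69. The largest rises were in dio2, which activates thyroid hormone (4.81, from 0 to 2.06 CPM in other cells to 6.3 to 28.1 CPM), plp1a, a myelin proteolipid gene (3.74), metrn, which encodes meteorin, a secreted factor of glial differentiation (2.6), and gfap, a glial filament gene (2.57). Levels of gfap were low, at 0 to 11.6 CPM in glial-marker cells. The glial transcription factor gene sox9b rose by 2.23 and sox2 by 0.89. For sox9b the level was 33.3 to 75.6 CPM against 2.06 to 13.2 CPM and the sets did not overlap. The water channel gene aqp1a.1 fell by 3.02 and the carbonic anhydrase gene cahz fell by 1.22, which was no longer called without both replicate 1 libraries (-0.83, adjusted p = 0.18, edgeR). After thinning cahz turned sign and was not called. All 9 blood and macrophage markers tested were also lower in glial-marker cells. The part of blood RNA in the falls of aqp1a.1 and cahz was not tested. Mature-glia genes were not called, among them glula (log2 difference 0.46, adjusted p = 0.24, edgeR), glulb (0.05), vim (-0.39), slc1a3a (0.63) and apoeb (-0.41). For glula, the level was 9.95 to 66.2 CPM in glial-marker cells and 4.87 to 37.1 CPM in other cells.

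Retinoid handling and BMP response were led by few genes. Of 17 retinoid genes tested 5 rose, among them cyp1b1, a cytochrome able to form retinoic acid (3.37), crabp1a (1.34) and the retinoic acid-degrading genes cyp26b1 (1.31) and cyp26c1 (1.01), while rbp4 fell by 3.19. Levels of cyp1b1 were 27.5 to 141 CPM against 0 to 5.57 CPM. Without both replicate 1 libraries 4 of 12 retinoid genes tested rose and none was called lower. Of 12 genes of the Id and BMP list only id1 rose, from 106 to 358 CPM in other cells to 370 to 1336 CPM in glial-marker cells (log2 difference 1.81, SE 0.24, adjusted p = 0.00099, edgeR), and id4 and id2a, which also encode inhibitors of basic helix-loop-helix factors, fell by 1.21 and 0.62. The genes id2a (adjusted p = 0.073, edgeR) and cyp26b1 (adjusted p = 0.095) were not called without both replicate 1 libraries.

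Of 21 junction and polarity genes tested 10 rose, none fell and 11 were not called, with a median log2 difference of 0.82. Without mCherry-enriched replicate 1 the count was 6 of 21, and in the eGFP-enriched libraries alone it was 2 of 23. Over all genes 198 of 11068 and 111 of 14326 were higher in these fits. The largest rise was in tjp2b (2.26, SE 0.25, 55.8 to 197 CPM against at most 41.2 CPM), followed by pard6gb, a polarity complex gene (1.61), yap1 (1.41) and cgna, which encodes cingulin (1.41). The level of yap1 was reversed in eGFP-enriched replicate 2, at 44 CPM against 98.8 CPM in other cells, and without both replicate 1 libraries yap1 was not called (1.43, adjusted p = 0.084, edgeR).

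Some progenitor genes also accompanied the marker genes, and others were lower. Of 22 progenitor and eye field genes 8 rose and 3 fell (8 and 6 without both replicate 1 libraries), and the rises included rx1, a homeobox gene of the eye field (1.62), and olig2 (1.18). Of 16 neurogenic genes tested 3 rose and 3 fell, with a median log2 difference of 0.06. Without both replicate 1 libraries 3 rose and 2 fell, with a median of -0.18. Of the proneural genes ascl1a, which zebrafish Müller glia need for regeneration, rose by 1.99 (66.8 to 326 CPM against 14.4 to 49.1 CPM). The paired box gene pax6a, whose human counterpart owns both enhancers, had 307 to 685 CPM in the mCherry-enriched and 292 to 814 CPM in the eGFP-enriched libraries and was not called (log2 difference -0.46, adjusted p = 0.099, edgeR). Neither was pax6b (-0.5, adjusted p = 0.065). Without both replicate 1 libraries both were called lower, at -0.71 for pax6a (adjusted p = 0.032) and -0.73 for pax6b (adjusted p = 0.013).

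All 25 S-phase genes were higher in glial-marker cells, with a median log2 difference of 0.76, and so were 10 of 25 G2 and M phase genes. The clamp gene pcna stood at 586, 442 and 983 CPM in the mCherry-enriched and 694, 1418 and 921 CPM in the eGFP-enriched libraries, with other cells at 321 to 651 CPM (log2 difference 0.67, SE 0.11, adjusted p = 0.0042, edgeR). These counts were 14 of 25 and 6 of 24 without both replicate 1 libraries. The S-phase calls changed with the rule. With 1500 UMIs drawn from each of the same cells 17 of 21 S-phase genes were called, whereas with the draw before the rule, which also changed the cells and dropped eGFP-enriched replicate 2, 0 of 20 were called and the median was 0.19. With 4 or more marker genes required, which also dropped eGFP-enriched replicate 2, it was 0 of 25, with a median of 0.33. The her, hes and hey genes differed in this respect, with 12 of 14 higher after thinning before the rule and 10 of 18 with 4 or more marker genes. Over all genes 454 of 11619 were higher in the main fit and 307 of 4814 with the draw from the same cells. With the draw before the rule it was 268 of 4735, and with 4 or more marker genes 181 of 12405.

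Markers of neurons were lower. Of 12 ganglion cell markers 11 fell, with a median log2 difference of -1.29, and 4 of 6 bipolar, 3 of 9 amacrine and 4 of 6 horizontal cell markers fell, while none of 8 photoreceptor markers was called. Of the amacrine cell markers 7 of 9 were lower without both replicate 1 libraries, with a median of -1.29. In that fit 1 of 8 photoreceptor markers was lower. The gene elavl3 stood at 999 ± 250 CPM (SD, n = 6) in other cells and 525 ± 233 CPM in glial-marker cells and fell by 1.07 (SE 0.16), with the lower level in glial-marker cells of all 6 libraries. Of tissues outside the retina, all 9 blood and macrophage markers tested fell and so did 5 of 6 lens markers (3 of 3 without both replicate 1 libraries). The largest falls under the naming rule were in the haemoglobin genes hbbe2 (-5.29), hbae1.3_1 (-4.53), hbae3 (-4.49), hbbe1.1 (-4.27) and hbae1.1 (-4.16), the calcium-binding gene icn (-4.02), the lens crystallin gene cryba1l1 (-3.35) and pfn1, which encodes profilin (-3.32). Summed blood markers were 1.6 to 1309 CPM in glial-marker cells and 48.5 to 14881 CPM in other cells. The remaining large rises were si:ch73-21g5.7 (3.41), her4.2_2 (2.42), abhd6a, a lipid hydrolase gene (1.89), and si:dkey-238o13.4 (1.75).

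**Figure D5:**
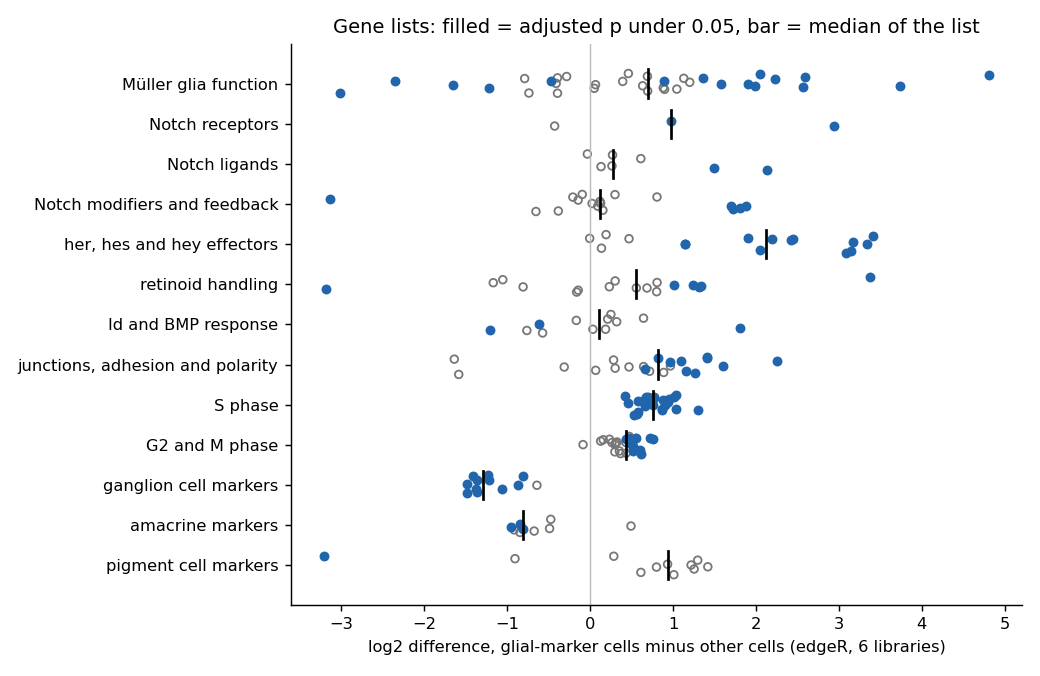
Log2 differences of glial-marker cells minus other cells (edgeR, 6 libraries) for the genes of 13 lists, 1 point per gene, filled where the adjusted p is under 0.05, with a bar at the median of each list. The her, hes and hey list has its median at 2.12, the S-phase list at 0.76 and the ganglion cell list at -1.29.

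Glial-marker cells were also compared with neurogenic progenitors, taken as 1040 cells outside the glial-marker set with UMIs in 3 or more of foxn4, hes2.2, ascl1a, atoh7, dla, dlb and insm1a. This list was met by glial-marker cells too, by 20.7% to 78.6% of them per library. Of 8498 genes outside both rules 415 (4.88%) were higher and 277 (3.26%) lower in glial-marker cells than in progenitors. Without both replicate 1 libraries it was 337 (5.79%) and 291 (5%) of 5816. The 692 calls became 244 without eGFP-enriched replicate 3 and 404 without mCherry-enriched replicate 3.

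Against progenitors the glial genes moved together. Of 26 Müller glia function genes 16 rose and none fell, with a median log2 difference of 1.74 against 0.04 for all genes. They included metrn (3.02), cx43, a gap junction gene (2.52), sox9b (1.85), glula (1.63) and sox2 (1.42). For metrn the level was 13.5 to 64.3 CPM in glial-marker cells and 0 to 3.72 CPM in progenitors. The Id genes id1 (2.33), id2a (1.19) and id3 (0.98) rose, and yap1 rose by 3.15, from 1.87 to 32.1 CPM in progenitors to 32.5 to 109 CPM. Of 14 her, hes and hey genes outside the rules 11 rose, among them her8a (3.14), her4.2_1 (2.38) and her6 (2.37), and hes6, which opposes Hes repressors, fell by 1.01. Of 12 neurogenic genes outside the rule 5 fell and none rose. The progenitor set was chosen on neurogenic genes and left out all glial-marker cells. These directions thus follow in part from the choice of both sets.

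Pigment genes were part of this difference. Of 9 pigment markers tested 8 rose against progenitors, and the 5 largest rises under the naming rule were mb, myoglobin (5.39), fabp11b (4.25), col2a1a, a cartilage collagen gene (3.85), pmela, a melanosome gene (3.29), and yap1. In the 7 pigment-marker cells of mCherry-enriched replicate 3, fabp11b reached 18891 CPM. The 5 largest falls were cxcr4b (-2.22), tfap2d (-2.08), pou2f2a_2 (-1.84), onecut1 (-1.6) and onecut2 (-1.48), the last pair being homeobox genes of horizontal and ganglion cells. The S-phase genes differed little, with 1 of 25 higher and 0 lower (0 higher and 2 lower without both replicate 1 libraries). Of the G2 and M phase genes, 9 of 25 were lower (14 of 24 without both replicate 1 libraries).

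Ciliary margin stem cells were taken as cells with UMIs in 3 or more of col15a1b, fabp11a, ggctb, foxp4 and dkc1. Glial-marker cells and cells of the progenitor set were left out of them. They could be compared in 3 libraries with 10 or more such cells, mCherry-enriched replicate 3 and eGFP-enriched replicates 1 and 3. Of glial-marker cells there, 9.68%, 32.4% and 16.5% met the stem cell list and 52.4%, 72.6% and 36.9% met the progenitor list. Of 9371 genes 602 (6.42%) were higher and 684 (7.3%) lower in glial-marker cells. The largest rises were her4.2_1 (5.66), neurog1 (5.43), olig2 (5.37), her4.2_2 (5.03) and her4.1 (4.58). Cells meeting the progenitor list were left out of the stem set but kept among glial-marker cells. Rises of neurogenic genes here thus follow in part from the choice. The largest falls were zgc:173915_1 (-7.58), apoda.1 (-6.31), crybb1 (-5.26), cryba2b (-5.26) and crybb1l2 (-5.18), of which the last 3 are lens crystallin genes, so the comparison set held cells with lens genes besides margin cells. Without eGFP-enriched replicate 1, 670 (7.85%) were higher and 753 (8.82%) lower of 8539. All 4 lens and all 10 pigment markers tested were lower in glial-marker cells in this comparison.

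Among glial-marker cells, those with a UMI of mki67 or top2a were called dividing and compared with the rest in the 5 libraries with 10 or more cells of each kind, leaving out eGFP-enriched replicate 2. The numbers were 174 and 27 cells, 16 and 13, and 83 and 41 in mCherry-enriched replicates 1 to 3, and 677 and 115 and 252 and 160 in eGFP-enriched replicates 1 and 3. Detection of a UMI depends on depth, so these numbers are not a rate of division. Of 8656 genes 770 (8.9%) were higher and 874 (10.1%) lower in dividing cells, and 498 (8.58%) and 393 (6.77%) of 5802 without both replicate 1 libraries. The 1644 calls became 952 without eGFP-enriched replicate 3 and 455 after thinning to 1500 UMIs per cell. Dividing cells were deeper, with medians of 28012 against 8290 UMIs in mCherry-enriched replicate 1 and 6428 against 4742 UMIs in mCherry-enriched replicate 3.

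Glial genes were lower in the dividing cells. Of 31 Müller glia function genes 20 fell and none rose, with a median log2 difference of -1.91 against -0.11 for all genes, among them slc1a3b (-4.69), ptn (-2.97), gfap (-2.34), glula (-2.2), vim (-2.18) and metrn (-1.47). The count was 11 of 25 without both replicate 1 libraries, where gfap (adjusted p = 0.056, edgeR) and metrn (adjusted p = 0.075) were not called. The 8 marker genes had a median log2 difference of -1.16 (-1.04 without both replicate 1 libraries), with -2.03 for rlbp1a and -0.96 for her12. Both kinds of cell were chosen on UMIs of these genes and dividing cells were deeper. The levels of marker genes thus depend on the choice and are a description here. The level of id1 was 435 to 1067 CPM in dividing cells and 1085 to 2140 CPM in the rest of these 5 libraries, without overlap, and id1 fell by 0.9. In the opposite direction, foxn4 (3.7), dlc (2.39), ccnd1 (2.2), insm1a (1.8), ascl1a (1.71) and notch1a (1.58) rose. For foxn4, a progenitor factor for amacrine and horizontal cells, dividing cells held 142 to 293 CPM and the rest 8.5 to 40.7 CPM. All 22 other G2 and M phase genes tested rose, which follows from the choice, since mki67 and top2a belong to the same list. The largest rises under the naming rule were zgc:173552_6 (5.08), cenpf (5.07), tacc3 (4.81), hist1h2a11_2 (4.74) and numa1 (4.59). The largest falls were rlbp1b (-4.46), col11a1a (-4.45), pnp4a (-4.24), col9a2 (-4.06) and serpinh1b (-3.93), and all 10 pigment markers tested fell. The part of pigment-gene cells in the falls of glial genes was not tested.

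The study's question was whether the cells with HS5 and with NRE activity differ. Between glial-marker cells of the mCherry-enriched and the eGFP-enriched libraries 0 of 10317 genes (0%) passed the threshold with edgeR, 166 had an unadjusted p under 0.05, and DESeq2 called 16 higher and 7 lower. With the sort round as a replicate block, edgeR called 45 genes higher (0.398%) and 62 lower (0.549%) of 11294. Among these were 6 of 10 pigment markers and all 4 blood markers tested, which were higher in the mCherry-enriched libraries. Lower there were 7 of 9 mesenchyme, 5 of 7 surface epithelium and 3 of 10 brain markers. Of 30 Müller glia function genes tested with the block, 4 were higher in the mCherry-enriched libraries (rgra, rgrb, rlbp1b and stra6) and 0 lower. Of 15 retinoid genes, rdh5 and rpe65a were higher there and aldh1a2 was lower. The DESeq2 calls included haemoglobin, collagen and keratin genes and the pigment epithelium genes rgrb and rlbp1b, which are also in the Müller glia function list. Summed blood markers in glial-marker cells were 1309, 1290.5 and 389 CPM in the mCherry-enriched and 18.8, 44 and 1.6 CPM in the eGFP-enriched libraries, and summed pigment markers were 923, 3940 and 3088 CPM against 312, 52.8 and 900 CPM. Their part in the sort comparison was not tested. Without both replicate 1 libraries edgeR called 3 genes higher (0.0535%) and 1 lower (0.0178%) of 5611, hbae1.3_1, hbbe1.3, rgrb and col1a2, which fall outside the naming rule and were named after their values were seen.

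The 8 marker genes chose the cells in both sorts, so their levels between the sorts depend on the choice and are a description. None of them was called, with or without the block. The her4 sum and the marker genes overlapped between them, and for fabp7a the mean was 8953 ± 2213 CPM (SD, n = 3) against 8285 ± 1906 CPM (SD, n = 3). The log2 difference of notch3 was 0.55 (SE 0.27) and that of rlbp1a 0.19 (SE 0.54), so differences of the size of their errors could not be detected. Position genes were examined because HS5 and NRE were imaged in nasal and temporal retina. The nasal gene foxg1a stood at 27.4, 16.1 and 32.6 CPM in glial-marker cells of the mCherry-enriched and at 61.6, 70.4 and 63.9 CPM in those of the eGFP-enriched libraries. The sorts did not overlap, with a log2 difference of -1.24 (SE 0.32) that was not called after adjustment (adjusted p = 0.64, edgeR) and was named after its values were seen. With the replicate block foxg1a was called lower (-1.19, SE 0.24, adjusted p = 0.017, edgeR), and none of the other 5 nasal genes was. The gene foxg1a is also a brain marker, and the brain markers emx2 and lmx1bb were called lower in this fit too. Glial-marker cells with brain markers numbered 22, 0 and 1 in the mCherry-enriched and 108, 0 and 15 in the eGFP-enriched libraries. Their part in the foxg1a difference was not tested. Summed over 6 nasal genes, foxg1a among them, the level was 173 to 190 CPM against 268 to 310 CPM, without overlap. The sum is thus not separate from the foxg1a difference. The sum was not tested, and 0 of the 6 genes was called without the block. With 3 against 3 libraries some genes and lists separate by chance, and the share of all genes without overlap is not given here. The temporal genes summed to 115, 52.3 and 107 CPM and 107, 185 and 126 CPM, with overlap, and foxd1, a temporal factor, stood at 8.04 to 35.7 CPM against 0 to 32.1 CPM. In other cells the nasal list overlapped between the sorts, with 306, 227 and 232 CPM in the mCherry-enriched and 320, 208 and 292 CPM in the eGFP-enriched libraries. On the other axis, the replicate block called aldh1a2 lower among 7 dorsal genes and vax1 higher among 5 ventral genes tested. Without the block no dorsal or ventral gene was called.

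The reporters themselves were sparse. Glial-marker cells held 265, 0 and 37 UMIs of eGFP in the mCherry-enriched and 553, 6 and 216 in the eGFP-enriched libraries, or 37.6, 0 and 38.9 CPM and 17, 52.8 and 43.3 CPM. Other cells lay at 4.12 to 53 CPM, and eGFP was not called between glial-marker and other cells (log2 difference 0.2, SE 0.28, adjusted p = 0.74, edgeR). Against neurogenic progenitors eGFP was not called either (0.54). Against ciliary margin stem cells, in 3 libraries, it was called lower in glial-marker cells (-1.75, and -1.83 without eGFP-enriched replicate 1). The reporter mCherry gave 83, 0 and 9 UMIs in glial-marker cells of the mCherry-enriched and 26, 0 and 7 UMIs in those of the eGFP-enriched libraries. With the replicate block mCherry was called higher in the mCherry-enriched libraries (log2 difference 3.46, SE 0.58, adjusted p = 0.0033, edgeR). The cells were sorted on mCherry fluorescence, so this call follows from the sort. The level of mCherry was 11.8, 0 and 9.45 CPM and 0.798, 0 and 1.4 CPM, against 1.12, 0.812 and 3.2 CPM and 0.274, 0 and 0.453 CPM in other cells. The log2 difference of mCherry was 1.87 (SE 0.47, adjusted p = 0.033, edgeR, higher in 4 of 6 libraries), over 125 UMIs in glial-marker cells and 22 in other cells. In barcodes with at most 100 UMIs mCherry stood at 44.4 CPM in mCherry-enriched replicate 1 and 20.5 CPM in eGFP-enriched replicate 1, above the cells of either set there, and its part in the difference was not tested. Most of the mCherry UMIs came from the replicate 1 libraries, and without both of them mCherry did not pass the filter on low counts.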

How the data were processed

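Raw UMI counts per gene and barcode were deposited for 6 libraries, without normalisation and for all barcodes. The authors made these counts with Cell Ranger on GRCz11 with eGFP and mCherry added. Version 6.1.2 is given in the submitters' processing notes and version 4 in the headers of the count files. In the study's description of the sorts each round gave 1 eGFP and 1 mCherry sample, and the replicate number was read as the round, so it pairs the libraries. Deviations of same-numbered libraries from their group means correlated at 0.27, 0.05 and 0.09. Embryos were pooled for each sample. In the comparisons within libraries the p-values measure how the difference between the sets of cells varies over libraries. Between the sorts they measure the spread between pooled samples. Libraries of the same round may not be independent, and only the replicate block and the sign-flip test took the round into account.

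The glial-marker cells and all gene lists were chosen with earlier results of these data known. Per library, UMIs were summed over each set of cells. Sums of at least 10 cells were compared with edgeR 4.0.16 in R 4.3.3 (TMM, filterByExpr, quasi-likelihood test, Benjamini-Hochberg over all genes, threshold 0.05), with the library as a covariate, or without covariate between the sorts. DESeq2 1.42.0 was an alternative, as were no filter, other cell filters and rules, thinning to 1500 UMIs per cell, leaving out libraries, and the replicate block. On simulated counts, with the same dispersion for every gene and libraries that differed only in size, the fits recovered planted changes. This check does not cover the spread between the real libraries. Doublets were not removed, and the alternative without barcodes over 3 times the median UMIs stands in for that.

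Named genes were the 8 marker genes, eGFP, mCherry, pax6a, pax6b, glula and pcna. Added to these were the 15 largest rises and 8 largest falls against other cells, the 5 largest each way in the other comparisons (mean log2 CPM of at least 5 and the same direction in every library), and up to 6 called genes per list. Genes named as not called, position genes and genes described by number of marker genes fall outside this rule and were chosen after their values were seen. Some genes that this rule names are not reported here. Genes and levels by number of marker genes are descriptions. Coordinates and sequences are not printed here.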

Additional observations from a re-analysis of the deposited data

Results flagged for a closer look

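For 6 of 372 genes of the lists with at least 30 UMIs in glial-marker cells (1.61%, against 1.8% of 11460 genes tested) the ratio of glial-marker to other cells went one way in every mCherry-enriched and the opposite way in every eGFP-enriched library. Such genes were thus no more frequent in the lists than among all genes tested. The difference between the sorts was not tested, and the values are mean log2 ratios (CPM + 1) in mCherry-enriched minus eGFP-enriched libraries. They were 5.98 for pnp4a, a purine nucleoside phosphorylase gene of iridophores, 2.62 for rdh5, a retinol dehydrogenase gene of pigment epithelium, 2.21 for elovl4b, 1.83 for msx1b, 0.64 for glulb and -1.43 for nr2f2. Levels of rdh5 were at most 28.4 CPM and of msx1b at most 20.6 CPM in glial-marker cells, and in eGFP-enriched replicate 2, with 12 glial-marker cells, pnp4a and rdh5 were at 0 CPM.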

How the results depend on the processing

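The count of genes called between glial-marker and other cells, 1188, moved with most settings. It was 2249 without a filter on low counts, 1841 without barcodes over 3 times the median UMIs, 694 after thinning to 1500 UMIs, 598 after thinning before the rule, 549 with 4 or more marker genes, 532 without fabp7a in the rule, 447 with mCherry-enriched libraries alone, 361 with eGFP-enriched libraries alone, 652 without both replicate 1 libraries (chosen after seeing the data), and 526 to 1281 when each library was left out in turn. Of 1188 calls, 358 were shared in direction with the 598 after thinning before the rule, 30.1% and 59.9% of each.

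The 692 calls against progenitors became 1492 without the filter and 244 to 790 with a library left out (244 without eGFP-enriched replicate 3). The 1286 calls against stem cells became 2915 without the filter and 598 after thinning, and 1128 to 1423 with a library left out. The 1644 calls between dividing and other glial-marker cells became 2467 without the filter, 455 after thinning, 891 without both replicate 1 libraries and 952 to 1551 with a library left out.

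Between the sorts, 0 calls became 23 with DESeq2, 47 without the filter, 9 after thinning, 4 without both replicate 1 libraries and 0 to 28 with a library left out (28 without eGFP-enriched replicate 1). With the replicate block it was 107. The share difference of 5.48 points ranged from -6.66 to 13.4 points with a library left out, and a sign-flip test within replicate numbers gave 5.48 points with an exact p of 0.5 against a smallest p of 0.25.

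For mCherry in glial-marker cells the log2 difference of 1.87 was no longer called with 500 genes and 800 UMIs (1.11), with mCherry-enriched libraries alone (2.12), or without eGFP-enriched replicate 3 (1.96, the range over the 4 of 6 fits with a library left out that could test it being 1.88 to 1.96). For single genes against other cells, 12 values turned sign, none of them called. After thinning before the rule these were mcm2 (-0.27), mcm6 (-0.15), mcm7 (-0.17), slbp (-0.034), dut (-0.23), dkc1 (-0.35) and cahz (0.44). In addition cahz was 0.047 after thinning, dkc1 -0.10 with 4 or more marker genes and -0.10 without fabp7a, and without barcodes holding markers of other tissues col1a2 was 0.19 and col5a1 0.21.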
